A study of Mus musculus with 7 samples.

Results

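Activins and TGF-betas are related secreted ligands that use different receptors and the same intracellular messengers, Smad2 and Smad3, and the 10 genes described here encode activin subunits, TGF-beta ligands, activin-binding inhibitors and receptors: Inhba, Inhbb, Tgfb1, Tgfb2, Tgfb3, Fst, Fstl3, Tgfbr1, Tgfbr2 and Acvr1. They were taken by symbol from the 22180 genes measured, each through its brightest probe set among those annotated to a single gene, and all 10 were found with 1 probe set each. Blastemas, the masses of cells that form on an amputated digit tip and regrow it, were collected from C57Bl/6 mice 2 weeks after amputation (n = 3 arrays) and set against uninjured digits of the same strain (n = 4 arrays). No transgene, drug or genotype other than the strain is given for either group, nor the age or sex of the mice or how many animals or digits made up a sample. The title of the study concerns Schwann cell precursors that act on neighbouring cells of the digit through secreted factors, so the comparison bears on which secreted ligands and receptors differ between blastema and intact digit.

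A ligand of this family binds a type II receptor kinase, which activates a type I receptor, which in turn phosphorylates Smad2 and Smad3 to change transcription. TGF-betas are held in the matrix in a latent complex until integrins or proteases free them, and follistatin, the Fst product, wraps activin and keeps it from its receptors. In skin wounds and in bone, TGF-beta is known for driving collagen and matrix production, and in the zebrafish fin activin A is known to be needed for blastema formation.

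The arrays had median levels of 5.53 to 5.58 on the log2 scale of the RMA values, and a 1-colour array has no read depth, so the 7 arrays themselves limit the precision. In the blastema 6 of 6 osteoblast, 7 of 8 osteoclast and 4 of 8 fibroblast and mesenchyme markers were called higher and 0 of each lower, and 7 of 10 markers of suprabasal and cornified epidermis were called lower. Of 6 Schwann cell markers 0 were higher and 1 was lower, and their mean levels were 5.85 to 6.00 in blastema arrays and 6.08 to 6.21 in uninjured arrays, against a background proxy of 5.52 (the 95th percentile of olfactory receptor genes). Over all genes 1105 were higher and 1034 (4.66%) lower in the blastema (limma, Benjamini-Hochberg adjusted p under 0.05). Scaling each array to 8 reference genes, of which 3 (Gapdh, Gusb and B2m) were themselves called higher, moved the median log2 fold change of all genes to -0.40 and the calls to 511 higher and 12473 lower, and scaling to the 5 that were not called moved the median to -0.13 and the calls to 606 higher and 1180 lower.

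Of the 10 genes 7 rose and 0 fell in the blastema, where 4.98% of all genes rose and 4.66% fell. Fst, Tgfb1 and Tgfb3 rose 3.02-fold to 3.24-fold, and Inhba, whose uninjured levels were under the background proxy, at least 2.08-fold. Tgfbr2, Acvr1 and Fstl3 rose by less, 1.33-fold to 1.57-fold, and Tgfb2, Tgfbr1 and Inhbb did not pass the test. All 7 that passed had groups that did not overlap, which held upward for 10.4% and in either direction for 21% of all genes. The median log2 fold change of the 10 was 0.58, against -0.01 over all genes. In whole tissue, more cells of an expressing type and more RNA per cell cannot be told apart.

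**Figure D1:**
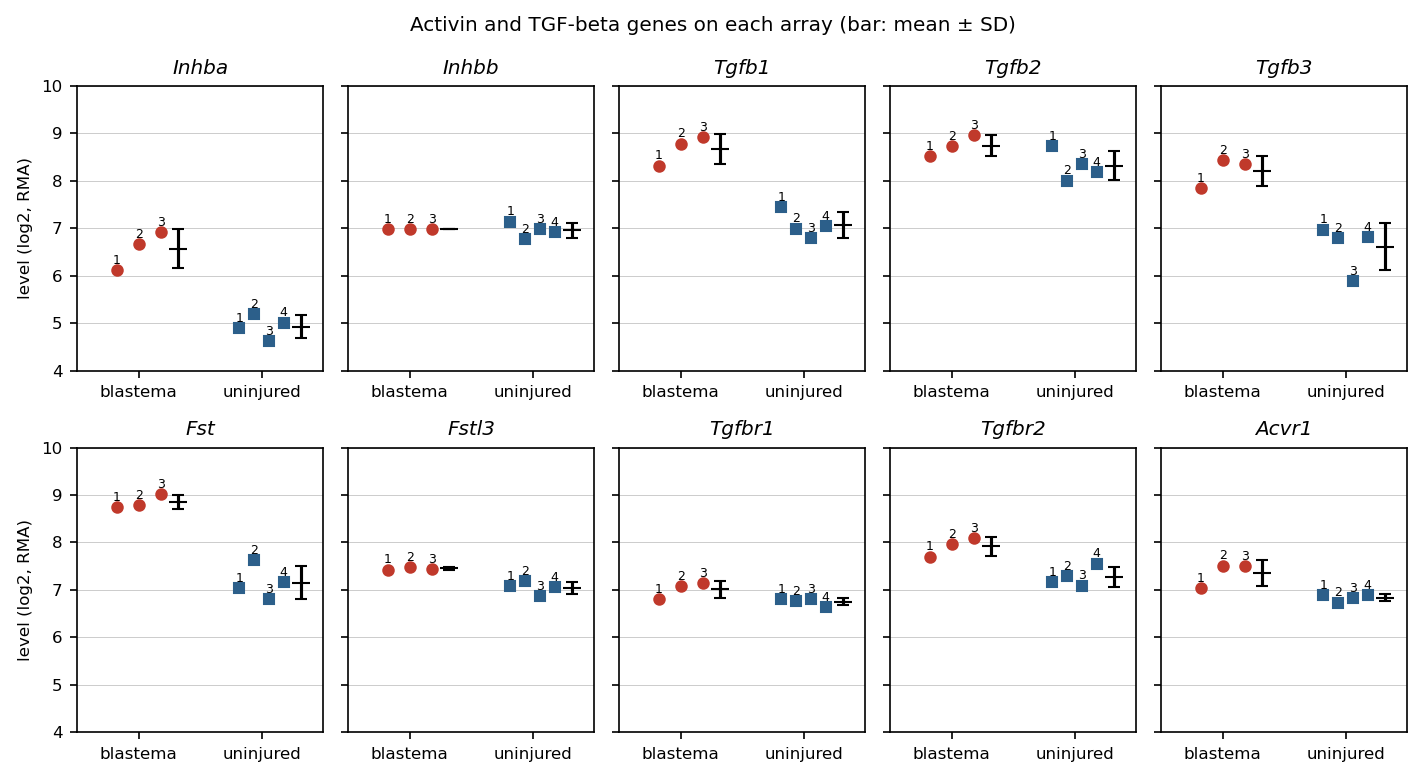
RMA level (log2) of each of the 10 genes on every array, with blastema arrays as circles on the left of each panel, uninjured arrays as squares on the right, array numbers above the points and mean ± SD beside them (n = 3 and n = 4). Inhba, Tgfb1, Tgfb3 and Fst separate widely, Fstl3, Tgfbr2 and Acvr1 separate by a narrow gap, and Inhbb, Tgfb2 and Tgfbr1 overlap.

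Inhba and Inhbb encode the subunits that pair to form activin A and activin B, and they are paralogs. Inhba lay at 6.13, 6.67 and 6.92 on blastema arrays 1, 2 and 3, against 4.89, 5.19, 4.62 and 5.02 on uninjured arrays 1 to 4. Every blastema array was above every uninjured array, with a gap of 0.94 between the nearest arrays. Its mean was 6.58 ± 0.41 (SD, n = 3) in blastema and 4.93 ± 0.24 (SD, n = 4) in uninjured digit, a log2 fold change of 1.64 ± 0.21 (SE) in the limma fit (adjusted p = 0.00498). All 4 uninjured levels were under the background proxy of 5.52, so the rise is better stated as a bound: with the uninjured level set to the proxy, Inhba was at least 2.08-fold higher in the blastema. This bound is on the difference of means and has no interval. It depends on the proxy, a percentile of olfactory receptor genes and not a measured detection limit.

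Inhbb lay at 6.98 on each blastema array, against 7.15, 6.78, 6.98 and 6.92 on the uninjured arrays. The blastema levels fell inside the uninjured range, and the difference was 0.02 (95% interval -0.19 to 0.23, limma adjusted p = 0.915). The interval leaves out a change as large as that of Inhba. The 3 blastema levels were identical to within 1e-06, and 29.5% of all genes had 3 or more arrays tied in this way. The sign of this small difference turned to -0.37 and -0.10 under the scalings to 8 and 5 reference genes.

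The paralogs also differ in the sequence before their starts. The 250 bases upstream of the RefSeq start are shown for both, since one gene of the pair passed the test and the other did not. Capitals mark the TATA box letters TATAAA, searched on both strands.
Inhba: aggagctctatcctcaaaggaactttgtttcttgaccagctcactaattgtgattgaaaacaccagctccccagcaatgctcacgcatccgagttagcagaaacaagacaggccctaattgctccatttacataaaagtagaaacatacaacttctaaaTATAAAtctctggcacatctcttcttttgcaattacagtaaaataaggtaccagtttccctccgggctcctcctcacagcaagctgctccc
Inhbb: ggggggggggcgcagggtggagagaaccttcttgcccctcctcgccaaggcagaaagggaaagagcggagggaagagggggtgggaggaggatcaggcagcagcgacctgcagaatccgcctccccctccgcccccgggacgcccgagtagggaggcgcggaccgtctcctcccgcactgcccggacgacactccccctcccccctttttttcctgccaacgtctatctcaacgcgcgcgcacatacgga
The Inhba stretch is chr13:16011601-16011850 on the plus strand and the Inhbb stretch chr1:119422249-119422498 on the minus strand of GRCm38.p6, from RefSeq. Inhba had 43.2% G and C with 1 TATA box that begins 91 bases before the start, and Inhbb had 68% with none. Over all 32851 windows of this length the median was 52.4% and 12.4% held the motif on either strand. Each letter match is a description of the sequence and not a binding site.

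Tgfb1, Tgfb2 and Tgfb3 encode the TGF-beta ligands, which are released as latent proteins. Tgfb1 lay at 8.33, 8.79 and 8.92 on blastema arrays 1 to 3, against 7.46, 7.0, 6.80 and 7.05 on uninjured arrays 1 to 4. The groups were 0.87 apart at their nearest, and Tgfb1 rose 3.04-fold (95% interval 2.23 to 4.14, limma adjusted p = 0.00422). Tgfb3 lay at 7.85, 8.44 and 8.35 on the blastema arrays, against 6.98, 6.79, 5.89 and 6.81 on the uninjured arrays. Uninjured array 3 was well below the other 3 uninjured arrays, and the groups were again 0.87 apart at their nearest. Tgfb3 rose 3.02-fold (95% interval 1.93 to 4.74, limma adjusted p = 0.0144), and without uninjured array 3 its log2 fold change was 1.35 (adjusted p = 0.0153).

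Tgfb2 lay at 8.52, 8.74 and 8.96 on blastema arrays 1 to 3, against 8.74, 8.01, 8.36 and 8.19 on uninjured arrays 1 to 4. Uninjured array 1 reached the level of blastema array 2, so the groups overlapped. The difference was 0.41 (95% interval -0.01 to 0.84, limma adjusted p = 0.211), an interval that ends below the estimates for Tgfb1 and Tgfb3. Without uninjured array 1 it was 0.55 (adjusted p = 0.0704).

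The upstream sequences of Tgfb1 and Tgfb2 are shown for the same contrast, with 1 paralog that passed and 1 that did not. Capitals mark the TATA box again and the letters of the Smad box, CAGAC, which Smad proteins are known to bind, on either strand.
Tgfb1: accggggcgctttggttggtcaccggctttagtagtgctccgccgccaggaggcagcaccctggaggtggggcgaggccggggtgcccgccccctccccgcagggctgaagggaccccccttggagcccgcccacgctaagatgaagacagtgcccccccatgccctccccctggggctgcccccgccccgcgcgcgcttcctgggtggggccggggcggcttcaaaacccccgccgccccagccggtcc
Tgfb2: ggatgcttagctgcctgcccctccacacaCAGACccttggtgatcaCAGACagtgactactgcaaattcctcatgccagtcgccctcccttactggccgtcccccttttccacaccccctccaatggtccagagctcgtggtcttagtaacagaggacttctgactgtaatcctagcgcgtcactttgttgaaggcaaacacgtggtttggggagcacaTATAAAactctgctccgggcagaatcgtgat
The Tgfb1 stretch is chr7:25686752-25687001 on the plus strand and the Tgfb2 stretch chr1:186705990-186706239 on the minus strand of GRCm38.p6, from RefSeq. Tgfb1 had 75.2% G and C and none of these motifs, while Tgfb2 had 53.6%, 1 TATA box that begins 31 bases before the start and 2 Smad boxes. A Smad box occurs on either strand in 42.2% of all windows. The AP-1 motif TGANTCA, searched in the same way, was in 6.75% of all windows and in 0 of the windows of these 4 genes, and none of the matches overlapped another. Of the 10 genes 8 had an upstream window in the RefSeq table used. Among them Fstl3, which passed, held 1 TATA box and 2 Smad boxes, as Tgfb2 did. Acvr1, which also passed, held neither motif, as Tgfb1 did. Any link between these motifs and the calls was not tested.

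Fst and Fstl3 encode follistatin and a follistatin-like protein, both of which bind activin and block it. Fst lay at 8.74, 8.79 and 9.02 on blastema arrays 1 to 3, against 7.04, 7.62, 6.80 and 7.16 on uninjured arrays 1 to 4. The gap between the groups, 1.12, was the widest of the 10 genes. The means were 8.85 ± 0.15 (SD, n = 3) in blastema and 7.16 ± 0.35 (SD, n = 4) in uninjured digit, a log2 fold change of 1.69 ± 0.19 (SE, limma adjusted p = 0.00349). Fstl3 lay at 7.43, 7.49 and 7.44 on the blastema arrays, against 7.08, 7.18, 6.87 and 7.05 on the uninjured arrays. The blastema arrays were nearly equal, with a range of 0.06, and the log2 fold change was 0.41 ± 0.08 (SE, limma adjusted p = 0.0235).

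Tgfbr1 and Tgfbr2 encode the type I and type II receptor kinases of the TGF-betas, and Acvr1 encodes a type I receptor that transduces BMP signals and also binds activin. Tgfbr2 lay at 7.70, 7.97 and 8.09 on blastema arrays 1 to 3, against 7.16, 7.29, 7.09 and 7.55 on uninjured arrays 1 to 4. Uninjured array 4 came within 0.15 of blastema array 1, and the log2 fold change was 0.65 ± 0.14 (SE, limma adjusted p = 0.0284). Acvr1 lay at 7.03, 7.51 and 7.50 on the blastema arrays, against 6.90, 6.73, 6.82 and 6.90 on the uninjured arrays. Blastema array 1 was only 0.13 above the nearest uninjured array, and the log2 fold change was 0.51 ± 0.13 (SE, limma adjusted p = 0.0470).

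Tgfbr1 lay at 6.81, 7.08 and 7.15 on the blastema arrays, against 6.81, 6.76, 6.80 and 6.64 on the uninjured arrays. Blastema array 1 and uninjured array 1 were tied, as 2 or more arrays were in 52.9% of all genes. The groups met at that value. The difference was 0.26 (95% interval 0.04 to 0.48, unadjusted), with a limma adjusted p of 0.144. It passed without blastema array 1 (0.36, adjusted p = 0.0358), and its sign turned to -0.14 when the arrays were scaled to 8 reference genes.

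**Figure D2:**
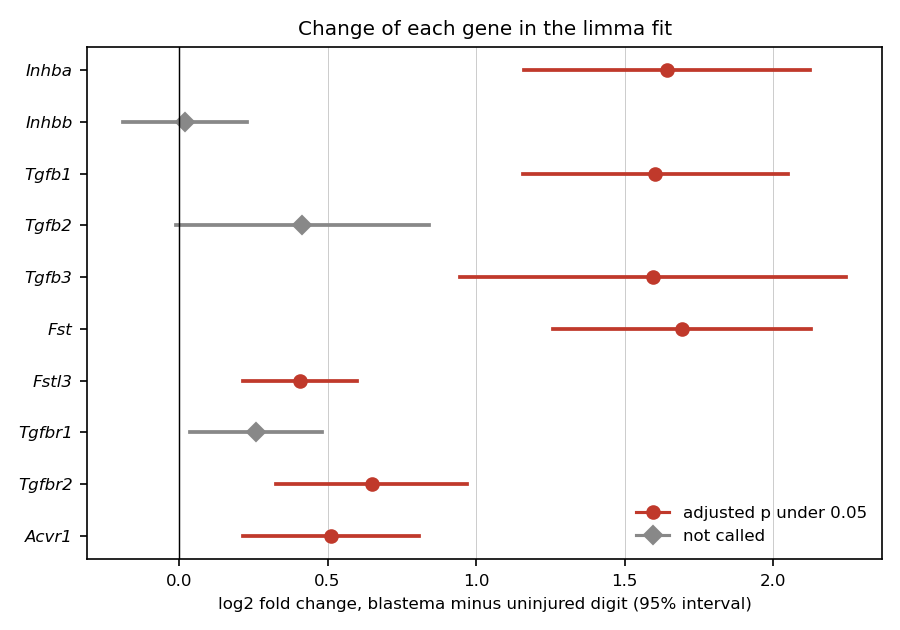
Log2 fold change of each gene, blastema minus uninjured digit, with its 95% interval from the limma fit, as circles for genes with an adjusted p under 0.05 and grey diamonds for the others. Tgfb1, Tgfb3 and Fst lie to the right with folds of 3.02 to 3.24, as does Inhba, for which only at least 2.08-fold was measurable, apart from the other 6 genes at log2 fold changes of 0.65 or less.

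The calls of the smaller rises rested on few arrays. Inhba, Fst and Tgfb1 passed in each omission of 1 array, with adjusted p up to 0.0329, 0.0247 and 0.0287. Tgfb3 lost its call when blastema array 2 or 3 was omitted (adjusted p = 0.0693 and 0.0732), and Fstl3 did so without blastema array 2 or 3 or uninjured array 4 (0.0882, 0.0832 and 0.0611). Tgfbr2 passed only when blastema array 1 or uninjured array 4 was the one omitted, with adjusted p of 0.0673 to 0.114 otherwise, and Acvr1 only when blastema array 1 was, with 0.0828 to 0.169 otherwise. The count of 7 fell to 3 without blastema array 2 or 3, and to 5 without any 1 of the uninjured arrays. The count over all genes fell in the same omissions. It went from 2139 to 886 without blastema array 2 and 845 without blastema array 3. Without uninjured arrays 1 to 4 in turn it was 1910, 1187, 1145 and 1244. Without both arrays numbered 1 the count among the 10 genes was 6, with Fstl3 and Tgfbr2 lost and Tgfbr1 gained. Fstl3, Tgfbr2 and Acvr1 lost their calls under either scaling to reference genes, which left the other 4.

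Whether these genes changed unequally was tested on the difference of log2 levels within each array, which cancels the scaling of the array. Such a difference has no meaning as a level, since probe sets differ in brightness, but its shift between groups is the difference of 2 fold changes. Of 6 pairs, 4 had groups that did not overlap. The exact two-sided permutation p was then 0.0286, the smallest that 35 splits of the arrays can give, or 0.0429 after Benjamini-Hochberg adjustment over the 6 pairs. The pairs were chosen with earlier results of these data known. Each of the 4 set a gene with a wide gap against one that changed less, so the choice favoured separation. The p-values describe these pairs and are not independent evidence of unequal change.

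Differences with Inhba rest on uninjured levels under the background proxy, so each is given with those levels set to the proxy, an alternative added with the data known. Each such bound is on a difference of means and has no interval. The rise of Inhba then exceeded that of its paralog Inhbb by at least 1.03 (exact permutation test, adjusted p = 0.0429), with the measured Inhba minus Inhbb at -0.85, -0.31 and -0.05 on blastema arrays 1 to 3, against -2.25, -1.59, -2.35 and -1.90 on uninjured arrays 1 to 4. It exceeded that of the inhibitor gene Fstl3 by at least 0.65 (adjusted p = 0.0429, exact permutation test), with a gap of 0.04 between the nearest arrays. The rise of Tgfb1 exceeded that of Tgfb2 by 1.19 and the rise of Tgfb3 exceeded that of Tgfb2 by 1.18 (adjusted p = 0.0429 for both, exact permutation tests). Tgfb1 minus Tgfb2 was -0.20, 0.05 and -0.04 on the blastema arrays, against -1.28, -1.01, -1.56 and -1.15 on the uninjured arrays, with no overlap.

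Inhba and its inhibitor gene Fst were not shown to change unequally. The measured Inhba minus Fst was -2.61, -2.12 and -2.10 on the blastema arrays, against -2.14, -2.43, -2.18 and -2.14 on the uninjured arrays, so the blastema arrays lay on both sides of the uninjured range. The difference of their fold changes was -0.05 as measured (exact permutation test, adjusted p = 0.743) and at least -0.64 with the uninjured Inhba level at the proxy (adjusted p = 0.103, exact permutation test), so its size could not be measured, and neither p shows that they rose alike. Tgfbr1 minus Tgfbr2 was -0.89, -0.89 and -0.95 on the blastema arrays, against -0.35, -0.53, -0.29 and -0.92 on the uninjured arrays. Uninjured array 4 lay among the blastema arrays, and the difference of -0.39 did not pass (exact permutation test, adjusted p = 0.137).

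**Figure D3:**
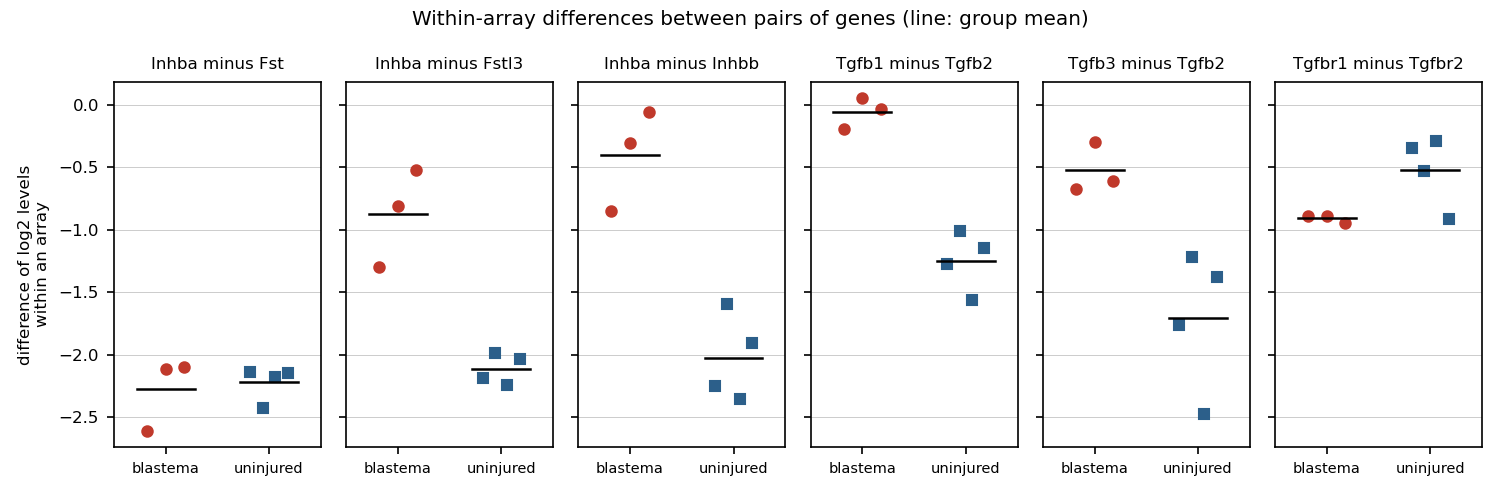
Difference of the log2 levels of 2 genes within each array, for the 6 pairs, with blastema arrays as circles on the left, uninjured arrays as squares on the right and lines at the group means. The groups separate for Inhba minus Fstl3, Inhba minus Inhbb, Tgfb1 minus Tgfb2 and Tgfb3 minus Tgfb2, and overlap for Inhba minus Fst and Tgfbr1 minus Tgfbr2.

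Blastema array 1 was the lowest blastema array in 9 of the 10, all but the tied Inhbb, and in 7 of the 7 that rose. Over all 1105 genes that rose, it was the lowest in 75.4%. Among the uninjured arrays, array 3 was the lowest in 6 of the 10 and in 44.2% of the 1105, array 2 in 3 of the 10 and array 4 in 1. The highest array of each group varied from gene to gene.

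Some marker lists of other cell types moved with the same arrays. The mean level of the fibroblast and mesenchyme markers, relative to the mean of the 7 arrays, was 0.39, 0.87 and 0.98 on blastema arrays 1 to 3, against -0.48, -0.23, -1.03 and -0.50 on uninjured arrays 1 to 4. Their mean levels ran from 8.11 to 8.70 in blastema and from 6.69 to 7.49 in uninjured digit. The osteoblast markers ran from 8.32 to 8.82 in blastema and from 5.18 to 6.09 in uninjured digit, the osteoclast markers from 7.20 to 7.97 and from 5.53 to 5.71. Uninjured array 3, lowest for Tgfb3, was also the lowest for the fibroblast and osteoblast markers, and blastema array 1 was the lowest blastema array for both. Among uninjured arrays, array 3 was also lowest for macrophage (6.14) and cartilage (5.22) markers. Osteoclast and endothelial markers were instead lowest on uninjured array 1 (5.53 and 6.18), against 5.58 and 6.31 on array 3. Macrophage markers (4 of 8 higher, 6.61 to 6.98 in blastema and 6.14 to 6.38 in uninjured digit) and endothelial markers (3 of 8 higher, 6.86 to 7.45 and 6.18 to 6.65) differed less. In the blood cell list the hemoglobin genes and Alas2 were not measured, which left Ptprc, S100a8, S100a9 and Cd3e (0 of 4 higher). Relative to the same mean, these 4 were at -0.31, 0.87 and 1.02 on blastema arrays 1 to 3. On the uninjured arrays they were at -0.35, -0.51, -0.29 and -0.43. Blastema array 1 stood with the uninjured digits for these 4 genes, and red cell content was not measured. No marker is at 0 on this scale, and the part of these cell types in the rises of the ligand genes was not tested.

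**Figure D4:**
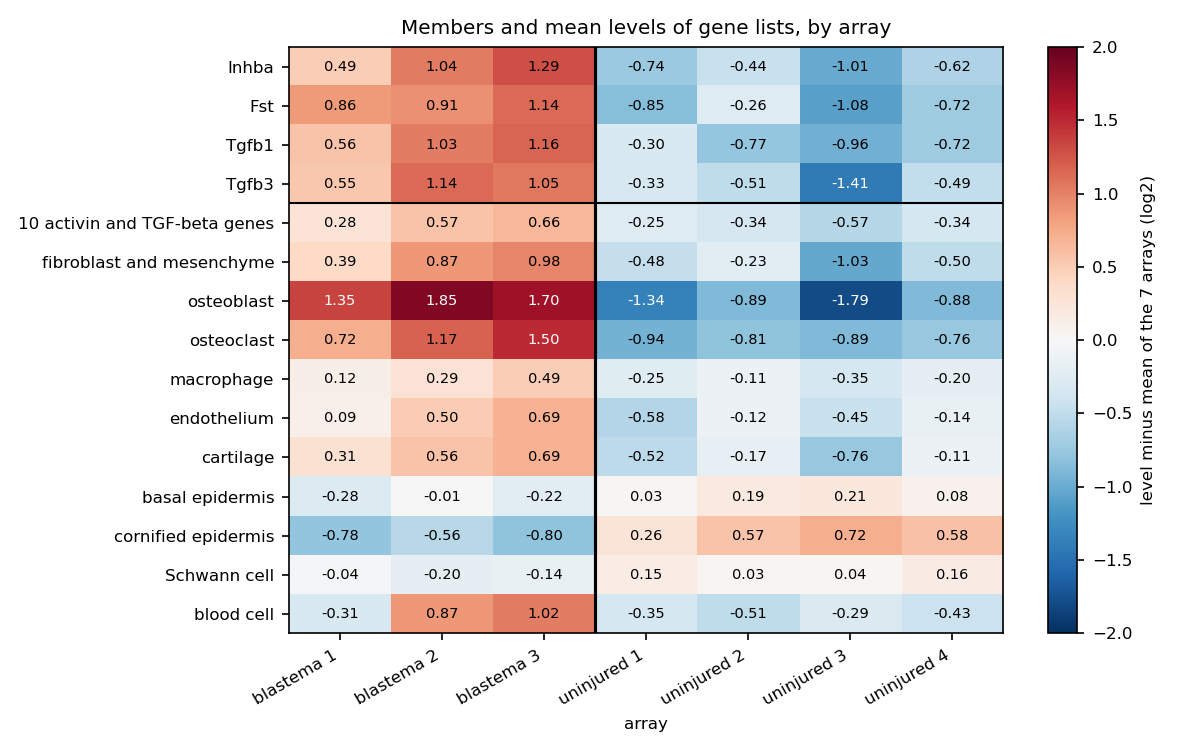
Level on each array minus the mean of the 7 arrays (log2, number in each cell), for Inhba, Fst, Tgfb1 and Tgfb3, the mean of all 10, and the means of 10 marker lists, with blastema arrays left of the line and uninjured arrays right of it. Inhba, Fst, Tgfb1 and Tgfb3 are above 0 on all blastema arrays and below 0 on all uninjured arrays, as are the fibroblast, bone, macrophage, endothelial and cartilage lists.

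The genes with the most similar course over the 7 arrays were found by the root mean square distance between levels centred on each gene's own mean, among 19225 named genes. Nearest to Inhba were Hmcn1 (0.05), Pcolce (0.06), whose product enhances procollagen processing, and the PDGF receptor gene Pdgfrb (0.07), with log2 fold changes of 1.64, 1.65 and 1.75. Nearest to Fst were Slc8a3 (0.11), the intermediate filament gene Vim (0.15) and again Pcolce (0.16). Nearest to Tgfb1 were Fndc3b (0.09), the peroxidasin gene Pxdn (0.09) and Maged1 (0.10). Nearest to Tgfb3 were Aspn (0.15) and Ogn (0.17), which encode small leucine-rich proteoglycans, and Tnn (0.17), a tenascin gene. The group difference makes up much of each course, so the distances describe these arrays and say nothing of shared control. For the smaller rises the nearest genes were Pde4a, Plcl1 and Lclat1 for Fstl3 (0.04 each), Zbtb10, Fkbp1a and Jak2 for Tgfbr2 (0.07 each) and Sirpa, Tcaf1 and Vmn2r4 for Acvr1 (0.04, 0.06 and 0.07). Among the 10 themselves, Inhba was nearest to Fst (0.18) and farthest from Inhbb (0.86).

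Of 71 other genes of the pathway that were measured, 22 rose and 4 fell, and their median difference was 0.15 on the log2 scale. Over all genes 9.64% passed the test in either direction. Of the 26 that passed, 18 passed in each omission of 1 array. Under scaling to 8 reference genes 17 of the 71 rose and 24 fell, and under scaling to 5 reference genes 18 rose and 3 fell.

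Of 10 other ligands of the family 0 rose and 1 fell, a share near the 9.64% of all genes, and 4 of the 10 were above the background proxy on 3 or fewer of the 7 arrays. The one that fell was the myostatin gene Mstn, a restrainer of muscle growth, at 5.74 ± 0.64 (SD, n = 3) in blastema and 6.81 ± 0.13 (SD, n = 4) in uninjured digit (log2 fold change -1.07 ± 0.27 SE, limma adjusted p = 0.0488). On blastema array 1 it lay at 5.10, under the background proxy, which limits how well the size of the fall is known. It lost its call in 6 of the 7 omissions of 1 array, all but that of blastema array 2, with adjusted p of 0.0578 to 0.155. The 6 skeletal muscle markers showed 0 higher and 0 lower, but their mean levels were under the background proxy on every array. These means were 5.03 to 5.09 in blastema and 5.09 to 5.18 in uninjured digit. Ckm, Myh4, Myl1 and Mylpf were each under the proxy on every array, so a fall in them could hardly show. Only Acta1 and Tnnt3, named like these after their values were seen, were above it on every array. Whether the muscle content of the samples differed was not tested.

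Of 10 other receptors and co-receptors 2 rose and 1 fell. Acvr1b, the type I receptor that carries activin signals, fell by 0.67 on the log2 scale (SE 0.11, limma adjusted p = 0.0114). It lay at 7.40, 7.60 and 7.11 on blastema arrays 1 to 3, against 8.04, 8.03, 8.07 and 8.04 on uninjured arrays 1 to 4. The uninjured arrays were almost level and every blastema array was below them, but the call was lost without both arrays numbered 1. The activin type II receptor genes Acvr2a (-0.05, adjusted p = 0.683) and Acvr2b (-0.01, adjusted p = 0.921), named after their values were seen, did not pass in the limma fit, and Acvr2b was under the background proxy on all 7 arrays. Eng, an endothelial co-receptor of TGF-beta (1.08 ± 0.25 SE, adjusted p = 0.0377), and Bmpr2, a type II receptor of BMPs (0.60 ± 0.08 SE, adjusted p = 0.00710), rose. Eng lost its call in 6 omissions of 1 array, all but that of blastema array 1 (adjusted p = 0.0547 to 0.144), and Bmpr2 did so under both scalings to reference genes.

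The largest group of rises outside the response genes was in the list for storage and release of latent TGF-beta, with 8 of 15 genes higher, 0 lower and a median of 0.35. Markers of osteoblasts (6 of 6), osteoclasts (7 of 8) and fibroblasts (4 of 8) were also called higher. The part of these cell types in the rises of this list was not tested. Thbs1, the matrix protein thrombospondin known to activate latent TGF-beta, lay at 9.75, 10.13 and 10.11 on blastema arrays 1 to 3, against 7.10, 6.84, 6.78 and 7.63 on uninjured arrays 1 to 4 (7.52-fold higher, limma adjusted p = 0.00126). The proteases Mmp14 (2.40 ± 0.14 SE) and Mmp2 (2.14 ± 0.18 SE), which can release the ligand, rose too, as did the latent TGF-beta binding protein gene Ltbp2 (1.39 ± 0.09 SE). Its relatives Ltbp1 (0.35, adjusted p = 0.0504), Ltbp3 (0.24, adjusted p = 0.193) and Ltbp4 (0.00, adjusted p = 0.996), named after their values were seen, did not pass in the limma fit. Another riser was Lrrc32 (1.16 ± 0.13 SE), which encodes a cell surface anchor of latent TGF-beta. Of the integrin subunits that bind the latent complex, Itgav (0.54), Itgb3 (0.68) and Itgb5 (0.27) rose, with adjusted p of 0.0247, 0.0282 and 0.0316 in the limma fit. Itgb6 (0.05, adjusted p = 0.788) and Itgb8 (0.23, adjusted p = 0.360), also named after their values were seen, did not pass in that fit. The 3 that rose lost their calls in 5, 6 and 6 of the 7 omissions of 1 array, with adjusted p of 0.0506 to 0.112, and Itgb5 turned in sign under scaling to 8 reference genes.

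The list of secreted binding proteins went unevenly, with 2 of 7 genes higher. Fstl1, which encodes a glycoprotein with a follistatin-like name, rose to 9.71 ± 0.38 (SD, n = 3) in blastema, against 7.18 ± 0.29 (SD, n = 4) in uninjured digit (5.80-fold, limma adjusted p = 0.00181). Whether the Fstl1 product acts on activin or TGF-beta here was not tested. Bgn, the gene of the TGF-beta-binding proteoglycan biglycan, rose by 1.97 ± 0.17 (SE) on the log2 scale. Dcn, the gene of the related decorin, differed by 0.11 (adjusted p = 0.806) in the limma fit and is named after its value was seen.

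Of 15 Smads and Smad regulators 1 rose and 2 fell. Pmepa1, a Smad-induced gene whose product dampens TGF-beta signalling, rose by 1.00 ± 0.15 (SE, limma adjusted p = 0.00896). Zfyve9, which encodes the anchor that presents Smads to the receptor, fell by 0.51 on the log2 scale (SE 0.07, adjusted p = 0.00684), and Smad2 fell by 0.26 (SE 0.06, adjusted p = 0.0335) in the same limma fit. Smad2 lost its call without blastema array 2 or 3 or uninjured array 2, 3 or 4, with adjusted p of 0.0756 to 0.109.

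Genes known to respond to TGF-beta rose in 11 of 19 cases and fell in 0, with a median of 0.96. Of the 71 genes 5 stand in 2 lists, and the risers Ltbp2 and Pmepa1 are counted here as well as above. The largest rises were those of Lox, a collagen cross-linking enzyme (3.60 ± 0.26 SE), Col1a1, the main collagen of bone and scar (3.48 ± 0.27 SE), and the tenascin gene Tnc (2.89 ± 0.27 SE). Fibroblasts and osteoblasts also make type I collagen, and 4 of 8 and 6 of 6 of their markers were called higher on the same arrays; their part in these rises was not tested. The feedback inhibitor genes Smad7 (-0.26, adjusted p = 0.199) and Skil (-0.03, adjusted p = 0.926) and the connective tissue growth factor gene Ccn2 (0.53, adjusted p = 0.184), all named after their values were seen, did not pass in the limma fit.

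**Figure D5:**
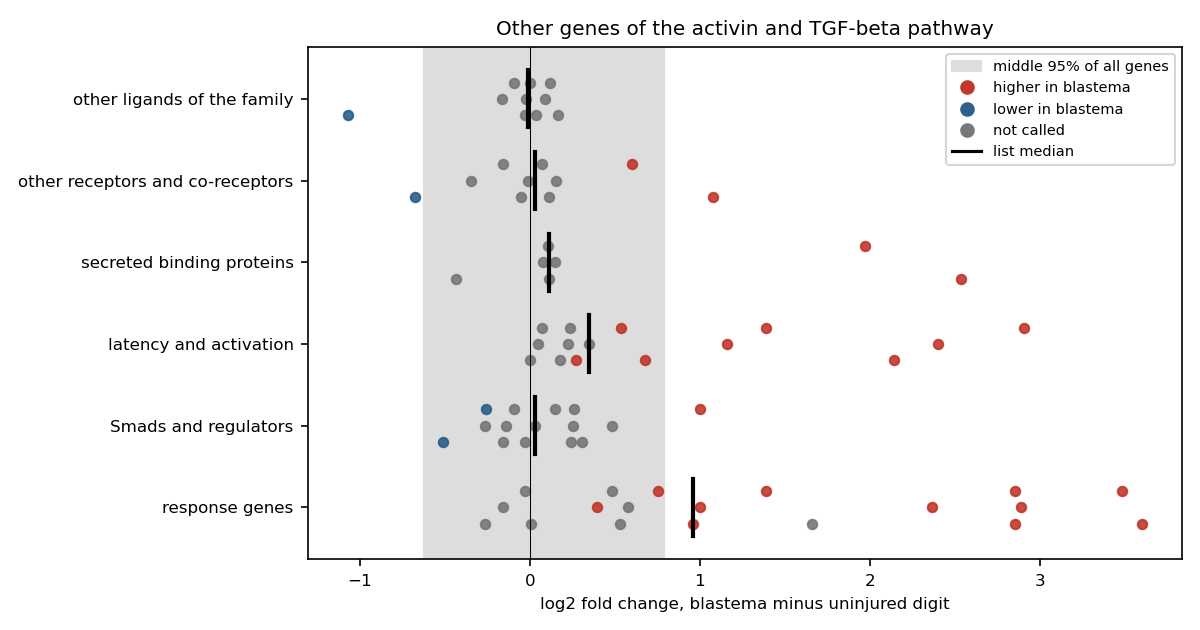
Log2 fold change, blastema minus uninjured digit, of the measured genes in 6 lists of the pathway, coloured by call, with a black line at each list's median and grey shading over the middle 95% of all genes (-0.62 to 0.79). Latency and activation genes (median 0.35) and response genes (median 0.96) extend far to the right, while the other ligands, receptors and Smads centre near 0.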

How the data were processed

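Log2 values of 41345 probe sets on 7 arrays were deposited by the authors, made with oligo and RMA per the submitters' processing notes. Per the labels' protocols, 400 ng of column-purified total RNA per sample was made into biotin-labelled cDNA. RMA equalises the distributions of arrays, so a difference in total RNA would not show. Versions, array design and build are not given in the sources, and the labels name no batch. The submitters call the samples biological replicates.

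Platform annotation gave 1 symbol to 23521 probe sets, and the brightest per gene was kept. A linear model per gene with moderated variances (limma 3.58.1 under R 4.3.3), with no covariate or filter, compared the groups over 22180 genes, with two-sided p-values adjusted by Benjamini-Hochberg and called under 0.05. Fold changes are blastema minus uninjured on the log2 scale. In simulated data over the same genes the fit recovered 32% of genes changed by 0.5, 92% by 1 and 100% by 2.

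All 10 genes are named, with called pathway genes and the 3 nearest genes of each riser. For ligands, binding proteins and response genes the naming rule takes the 3 largest called changes. Members, lists and tests were chosen with earlier results of these data known, and the background proxy after the data were seen. Of 74 listed pathway genes 71 were measured, and the others were not analysed here. Figures used matplotlib 3.10.9.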

Additional observations from a re-analysis of the deposited data

Results flagged for a closer look

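Tgfb3 on uninjured array 3 stood far from the other uninjured arrays. It lay at 5.89, against 6.79 to 6.98 on the other 3, and the gap took up 0.832 of the range of the group, over the 95% critical value of Dixon's test for 4 samples. Inhba minus Fst on uninjured array 2 lay at -2.43, against -2.18 to -2.14 on the other 3, a gap of 0.879 of the range. Values of 36 genes and 6 pairs were examined, and chance alone marks about 1 group in 20.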

How the results depend on the processing

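The array number as a replicate block left 599 genes, 1 of the 10 members (Fst), 14 pathway genes (14 higher, 0 lower, so the falls of Acvr1b, Zfyve9, Smad2 and Mstn were lost) and 0 pairs called, where 3 blocked pairs of arrays cannot pass. Same-numbered arrays deviated together for numbers 1 and 2 (r = 0.29 and 0.15) but not 3 (-0.07), where different-numbered arrays ran from -0.22 to 0.14. This does not settle whether the numbers pair samples. The labels do not say that they do, so the fit without the block is the one reported. Scaling to 8 reference genes gave 12984 genes, 4 members and 41 pathway genes, and scaling to the 5 not called, chosen after seeing the data, gave 4 members and left 33.93% of calls higher, against 51.66% as reported, 3.94% with 8 genes and 41.26% adjusted over all probe sets. Omitting 1 array gave 845 to 2295 genes, 3 to 8 members, 18 to 25 pathway genes and 0 to 0 pairs, and with 6 arrays no pair can pass. Inhbb turned to -0.37 and -0.10 under the scalings to 8 and 5 genes and ranged from -0.038 to 0.083 over omissions of 1 array, -0.038 being without uninjured array 2, Tgfbr1 to -0.14 under scaling to 8 genes, and Inhba minus Fst to 0.12 without blastema array 1. The causes were not tested. Filtering by level, averaging a gene's probe sets, trend and robust variances, array weights and median scaling kept the same 7 members called, and adjusting over all probe sets kept 6. Low signal limits Inhba in uninjured digit.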
